A study of Mus musculus with 14 samples.

Results

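The visual cycle, or retinoid cycle, is the set of reactions that returns the light-sensitive form of vitamin A aldehyde to the opsins after light has changed its shape. The genes described are 9 genes of this cycle, chosen by name: Abca4, Rdh8, Rdh10, Rdh11, Rdh12, Rdh13, Rdh14, Retsat and Rlbp1. They are 9 of 26157 genes that the RNA tables hold under a symbol, and the counts of their 16 RefSeq records were summed per gene. The shBCOR group had 2 libraries, from wild-type CD1 mice that received by electroporation of the eye at birth (P0) the plasmid pSilencer-shBcor, which carries a short hairpin RNA against the corepressor gene Bcor. The control group had 2 libraries, from mice of the same strain and age that received the empty vector pSilencer-CAG-Venus. Both groups shared the P0 surgery with plasmid DNA at 1 µg/µl, collection of the eyes at postnatal day 21, Accutase dissociation and a sort for GFP+ cells, so that each library is a pool of several sorts with 30000 to 70000 cells and not 1 animal. The p-values measure the spread between such pools, and the labels do not give the number of eyes in each.

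In a rod or cone, light turns 11-cis-retinal into all-trans-retinal, which leaves the opsin and must be cleared from the disc membrane. ABCA4 carries retinal bound to a membrane lipid across the disc membrane, and RDH8 and RDH12 reduce all-trans-retinal to retinol in photoreceptors. The retinol moves through the matrix between photoreceptors with the carrier IRBP (the gene Rbp3) to the pigment epithelium, where LRAT and RPE65 act on it and RLBP1, also made in Müller glia, holds the 11-cis product. Loss of ABCA4 in people is the usual cause of Stargardt disease, and loss of RDH12 causes an early retinal dystrophy. Electroporation at birth reaches progenitors that still divide, which give mainly rods, with bipolar cells, Müller glia and some amacrine cells.

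The libraries held 3173927 and 4093380 counts (shBCOR) and 5107174 and 4973402 counts (control). Bcor itself, the target of the hairpin, had a count in 1 of its 6 records, with 0 and 13 counts in the shBCOR libraries and 20 and 8 in the controls, so the counts do not check the group labels. Levels are given as CPM, counts per 1000000 after TMM scaling, which sets the libraries on a common scale by the bulk of the genes. The 12 rod markers summed to 242293 and 205141 CPM in the shBCOR libraries and to 182329 and 182899 CPM in the controls, with Nrl at 0 in every library. Of 11 rod markers tested 0 passed with edgeR (adjusted p under 0.05) and 6 with DESeq2, against 0.09% and 5.44% of all genes. In both shBCOR libraries 9 lay above both controls (18.6% of all genes tested), and the median log2 fold change was 0.28. The 12 Müller glia markers summed to 4516 and 5570 CPM in the shBCOR libraries and 6190 and 6007 CPM in the controls, and 0 of 9 tested passed with edgeR and 2 with DESeq2 (Glul and Kcnj10, both lower). Of the 9, 4 had a positive and 5 a negative log2 fold change, with a median of −0.12. Without Glul, left out after its values were seen, the sums were 2123 and 2497 CPM in the shBCOR libraries and 2343 and 2269 CPM in the controls, which overlap. Of 12 markers of the pigment epithelium 7 were at 0 in every library (Rdh5, Rgr, Best1, Tyr, Tyrp1, Mlana and Stra6), and the list summed to 0 and 19.6 CPM in the shBCOR libraries and 2.96 and 2.65 CPM in the controls. In pooled cells of this kind, fewer cells of a type and less RNA per cell cannot be told apart.

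No visual cycle gene passed the test between shBCOR and control cells. Abca4 came closest, with a level 1.497-fold higher in the shBCOR cells that missed the threshold narrowly. Rdh8 and Rdh10 were also higher in both shBCOR libraries than in both controls, by 1.23-fold and 1.28-fold, but within what the fit allows for no difference. The test was edgeR's quasi-likelihood test over all genes with Benjamini-Hochberg adjustment, and a gene passed at an adjusted p under 0.05. Of 7775 genes tested, 7 passed (0.09%), 3 higher (0.0386%) and 4 lower (0.0514%), and with library totals alone in place of TMM 29 passed, 3 higher and 26 lower. Of the 9 visual cycle genes 7 were tested and 0 passed, with 1 at an unadjusted p under 0.05, against 723 of all genes (9.3%). DESeq2, the other tool run, called 1 of the 9, Abca4 (adjusted p = 1.22e-12), against 410 of the 7541 genes to which it gave an adjusted p (5.44%; 2.6% higher and 2.84% lower). The 2 shBCOR libraries were higher than each control for 3 of the 7 (18.6% of all genes tested) and below them for 1 (23.2%). The number of genes that passed with edgeR was 525 without shBCOR replicate 1, 491 without shBCOR replicate 2, 4 without control replicate 1 and 5 without control replicate 2. The median log2 fold change was 0.34 over the 7, or 0.35 without Rdh11, and −0.01 over all genes tested.

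**Figure D1:**
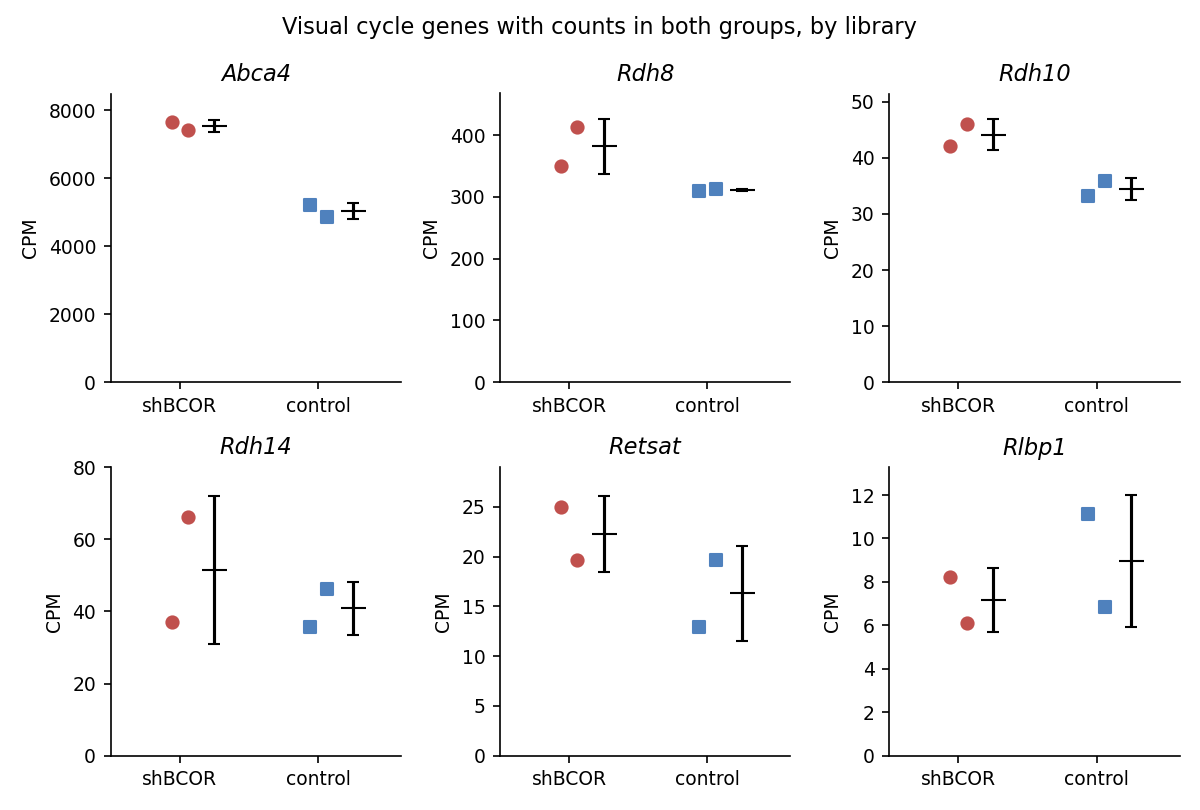
Levels in CPM (vertical axes, starting at 0) of the 6 visual cycle genes with counts in both groups, by group. Circles are shBCOR libraries, squares are control libraries, and black marks give the mean and SD of 2 libraries. For Abca4, Rdh8 and Rdh10 both circles lie above both squares, while the groups overlap for Rdh14, Retsat and Rlbp1.

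Abca4 (record NM_007378) encodes the retinal transporter of the outer segment disc rim and had by far the most counts of the 9 genes. It had 22374 and 29105 counts in the shBCOR libraries and 28116 and 25725 in the controls. Set on the common scale, these were 7670 and 7419 CPM in the shBCOR libraries, against 5204 and 4876 CPM in the controls. The groups did not overlap, and the level averaged 7544 ± 177 CPM in shBCOR cells and 5040 ± 232 CPM in control cells (SD, n = 2 each). On the log2 scale the difference was 0.58 ± 0.08 (SE, n = 2 per group; edgeR adjusted p = 0.0590, unadjusted p = 9.11e-05). The 95% interval of the fold, not adjusted for the number of genes, ran from 1.32 to 1.70. By p-value Abca4 stood at rank 12 of the 7775 genes, 5 places behind the last gene that passed.

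The call of Abca4 turned on the settings while its size moved less. Over the alternatives tried, the log2 fold change ran from 0.30 to 0.65 and the adjusted p from 1.22e-12 to 0.681. Without shBCOR replicate 1 or shBCOR replicate 2 it passed, at 0.56 and 0.60 (adjusted p = 9.22e-11 and 6.86e-11), and without control replicate 1 or control replicate 2 it did not, at 0.62 and 0.53 (adjusted p = 0.403 and 0.681). Each of these fits takes the spread of a lone library to be like that of the other group.

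**Figure D2:**
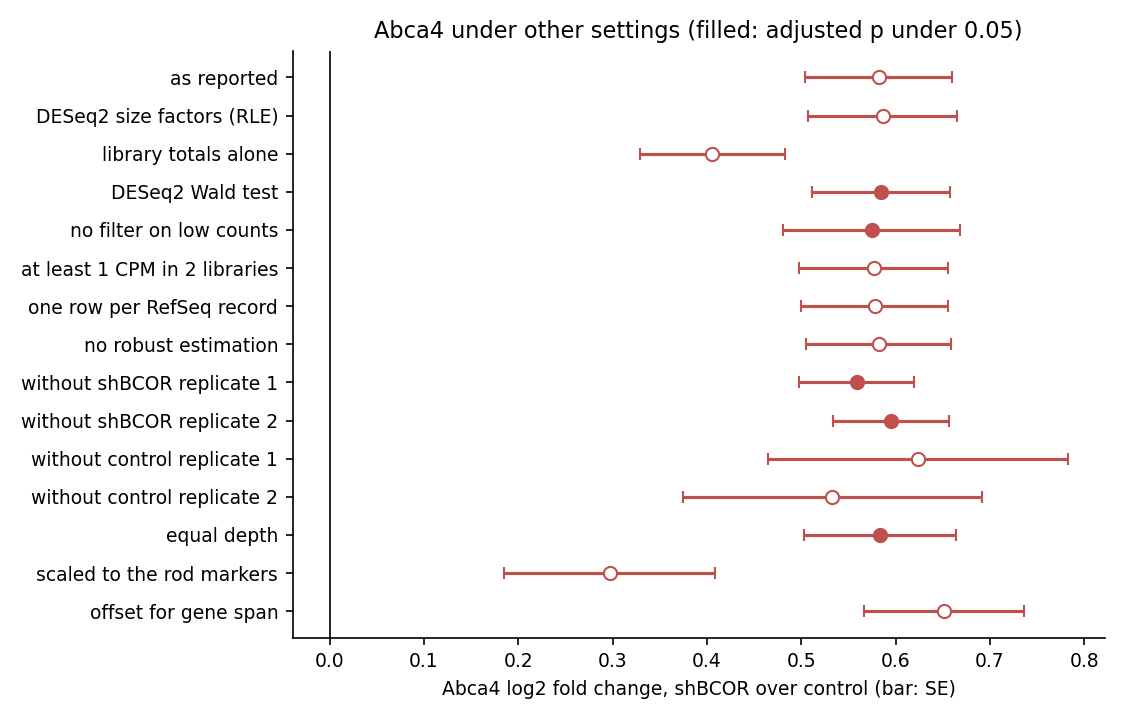
Log2 fold change of Abca4, shBCOR over control (horizontal axis; bars are SE), as reported and under 14 other settings. Filled circles mark an adjusted p under 0.05, which 5 of the 14 reached, and the log2 fold change was positive in all 14. The replicate block is not plotted, and it also reached this threshold (edgeR adjusted p = 0.0495).

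The bases before the start of Abca4 are shown with those of Rdh8 and Rbp3, other genes of the cycle that photoreceptors express, because the series concerns BCOR as a partner of the homeobox factors OTX2 and CRX. The sequences are the 250 bases before the RefSeq start on GRCm38.p6, 5′ to 3′ on the gene's strand, in lower case. Capitals mark TAATCC, the core of CRX and OTX2 sites, on either strand, which reads GGATTA where it lies on the opposite strand. Abca4 covers chr3:122044210-122044459, Rdh8 chr9:20818244-20818493 and Rbp3 chr14:33953753-33954002, all on the plus strand.
Abca4: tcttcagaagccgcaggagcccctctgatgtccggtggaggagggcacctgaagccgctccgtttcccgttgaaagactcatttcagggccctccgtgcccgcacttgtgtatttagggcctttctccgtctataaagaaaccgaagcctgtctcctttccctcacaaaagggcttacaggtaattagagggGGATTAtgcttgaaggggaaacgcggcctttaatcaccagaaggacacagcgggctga
Rdh8: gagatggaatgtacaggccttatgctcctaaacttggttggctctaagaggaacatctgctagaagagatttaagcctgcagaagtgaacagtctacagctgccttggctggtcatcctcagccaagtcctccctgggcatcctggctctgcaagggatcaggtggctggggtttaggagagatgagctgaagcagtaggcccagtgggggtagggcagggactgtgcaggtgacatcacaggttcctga
Rbp3: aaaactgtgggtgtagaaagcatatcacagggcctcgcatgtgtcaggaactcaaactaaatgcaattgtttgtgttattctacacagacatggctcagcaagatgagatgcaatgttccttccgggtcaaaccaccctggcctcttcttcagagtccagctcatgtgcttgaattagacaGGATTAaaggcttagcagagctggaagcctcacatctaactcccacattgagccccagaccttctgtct
TAATCC began 58 bases before the start of Abca4 and 69 bases before that of Rbp3, on the opposite strand in both, and had no match in this window of Rdh8. Windows of 300 bases, with 50 after the start, were matched for 7 of the 9 genes (not for Rdh10 and Rdh13), and TAATCC was found in 1 of the 7, against 7.06% of 32851 promoters. TGCTGA, the first part of the NRL element, was found in 4 of the 7 (Rdh8, Rdh12, Rdh14 and Rlbp1) and in 19.5% of all. The E-box CANNTG was found in all 7 and in 72.3% of all, GGGCGG in 1 (Retsat) and 35.7%, and TATAAA in 3 (Abca4, Retsat and Rlbp1) and 13.6%. All motifs were searched on both strands, and a match describes the letters and not a bound site.

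The retinol dehydrogenases reduce all-trans-retinal or oxidise retinols, and 6 of the 9 genes belong to them. Rdh8 (NM_001030290), the outer segment enzyme that acts on the retinal cleared by ABCA4, had 350 and 414 CPM in the shBCOR libraries, against 310 and 313 CPM in the controls. The controls lay close together, and shBCOR replicate 2 stood further above them than replicate 1. The difference was 0.30 ± 0.15 on the log2 scale (SE; edgeR adjusted p = 0.591, n = 2 per group), and the 95% interval of the fold ran from 0.968 to 1.56. Without shBCOR replicate 2 the value was 0.16, and without replicate 1 it was 0.41.

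Rdh10 (NM_133832), which oxidises retinol on the way to retinal in the pigment epithelium and Müller glia and to retinoic acid in the embryo, had 42.2 and 46.1 CPM in the shBCOR libraries and 33.1 and 35.8 CPM in the controls. The groups did not overlap, with 123 to 189 counts per library. Its log2 fold change was 0.36 ± 0.34 (adjusted p = 0.863, edgeR, n = 2 per group), and the interval of the fold, 0.737 to 2.23, spans both directions. Rdh14 (NM_023697), a dehydrogenase of many tissues, had 37.0 and 66.0 CPM in the shBCOR libraries and 35.7 and 46.1 CPM in the controls. The shBCOR libraries differed more from each other than the groups did, and the log2 fold change of 0.34 ± 0.39 (adjusted p = 0.896, edgeR) turned to −0.15 without shBCOR replicate 2.

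Rdh11, Rdh12 and Rdh13 could not be measured well. Each has several RefSeq records, 8 in all, and 1 of the 8 had any count. That record of Rdh11 (NM_001362269), a retinal reductase of photoreceptors and other cells, had 0 counts in both shBCOR libraries and 12 and 12 in the controls. At a floor of 3 counts per library this is at least 2.51-fold lower in the shBCOR libraries, with an adjusted p of 0.648 in edgeR, and Rdh11 entered the test through its control counts alone. Both records of Rdh12, the photoreceptor reductase, and all 3 of Rdh13, an enzyme of mitochondria, were listed at 0 in all 4 libraries. Over the whole tables, 14.3% of the records of genes with several records had a count, against 46.4% of the records of genes with a single one. A 0 of such a record is therefore no measure of the gene's RNA. This holds for every gene with several records that is given here at 0, markers included.

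Retsat and Rlbp1 had few counts, and their groups overlapped. Retsat (NM_026159), a retinol saturase that adds hydrogen to a double bond of retinol, had 25.02 and 19.6 CPM in the shBCOR libraries and 13.0 and 19.7 CPM in the controls. Its log2 fold change was 0.45 ± 0.51 (adjusted p = 0.896, edgeR, n = 2 per group), and the interval of the fold ran from 0.597 to 3.12. With 70 to 104 counts per library, counting alone gives an error of up to 11.95% of a value. Rlbp1, the 11-cis-retinal carrier of pigment epithelium and Müller glia, had 24 and 24 counts in the shBCOR libraries and 60 and 36 in the controls, summed over 3 records. This was 8.23 and 6.12 CPM in the shBCOR libraries, against 11.1 and 6.82 CPM in the controls. The log2 fold change of −0.32 ± 0.92 (adjusted p = 0.983, edgeR) turned to 0.064 without control replicate 1. Its records NM_001357450 (14 and 11 counts in shBCOR, 59 and 7 in control) and NM_020599 (10 and 13 in shBCOR, 1 and 29 in control) went different ways within the control group, so its level is uncertain. The Müller glia markers had log2 fold changes in both directions, and their part in the value of Rlbp1 was not tested.

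**Figure D3:**
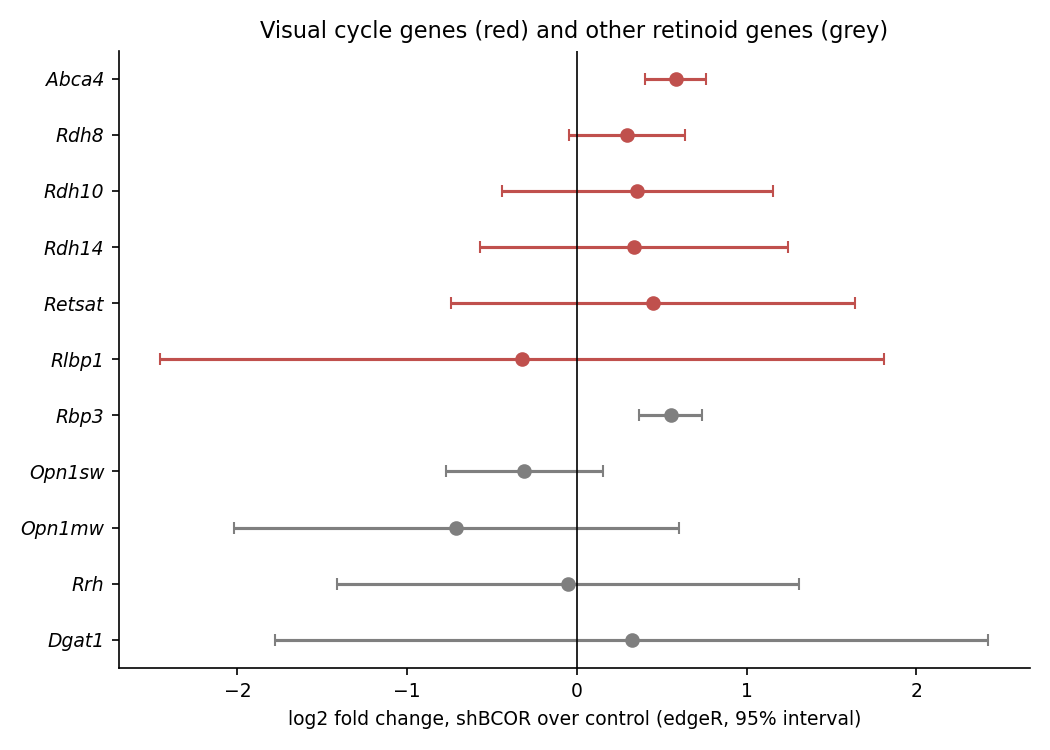
Log2 fold change, shBCOR over control (horizontal axis), with the 95% interval from edgeR, for 6 visual cycle genes (red) and 5 other retinoid genes (grey). The intervals of Abca4 and Rbp3 lie above 0, and the other 9 cross it.

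Most rod markers lay higher in the shBCOR libraries, as Abca4, Rdh8 and Rdh10 did, so these genes were also set against the rods. Per 1000 counts of the summed rod markers, Abca4 had 31.7 and 36.2 counts in the shBCOR libraries and 28.5 and 26.7 in the controls, and the groups did not overlap. Scaled to the rod markers, its log2 fold change was 0.30 ± 0.11 (adjusted p = 0.385, edgeR, n = 2 per group), on a scale that lowers the median of all genes by 0.28. Rdh8 had 1.44 and 2.02 counts per 1000 rod marker counts in the shBCOR libraries and 1.70 and 1.71 in the controls, a log2 difference of 0.02 on the rod scale (edgeR adjusted p = 0.997). Rdh10 had 0.174 and 0.225 per 1000 in the shBCOR libraries and 0.182 and 0.196 in the controls, a difference of 0.08 (adjusted p = 0.989). On this scale the shBCOR libraries of Rdh8 and Rdh10 lay on either side of the controls, and the part of the rods in their values was not tested further. The 10 cone markers summed to 1116 and 736 CPM in the shBCOR libraries and 1190 and 1067 CPM in the controls, which overlap. Of 8 cone markers tested 2 had a positive and 6 a negative log2 fold change, and 0 passed with edgeR or DESeq2. Markers of bipolar, amacrine, ganglion and horizontal cells mostly lay lower. The 10 bipolar markers (Pcp2 among those at 0) summed to 1075 and 1536 CPM in the shBCOR libraries and 1841 and 1769 CPM in the controls, with a negative log2 fold change for 8 of 8 tested. The 8 amacrine markers (Tfap2a and Pax6 at 0) summed to 28.8 and 37.0 CPM in the shBCOR libraries and 111 and 132 CPM in the controls, with 4 of 5 tested negative. The 11 ganglion and horizontal cell markers (Rbpms and Slc17a6 at 0) summed to 693 and 369 CPM in the shBCOR libraries and 1857 and 1793 CPM in the controls, with 7 of 8 tested negative. Neurofilament genes, Nefm among them, held most of this sum in every library, so it does not measure the number of these cells. With edgeR 0 of the bipolar, 0 of the amacrine and 1 of the ganglion and horizontal markers (Nefm, lower) passed (0.09% of all genes). DESeq2 called 1, 3 and 4 of these lists (5.44% of all genes). The part of these cells in the values of Abca4, Rdh8 and Rdh10 was not tested.

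**Figure D4:**
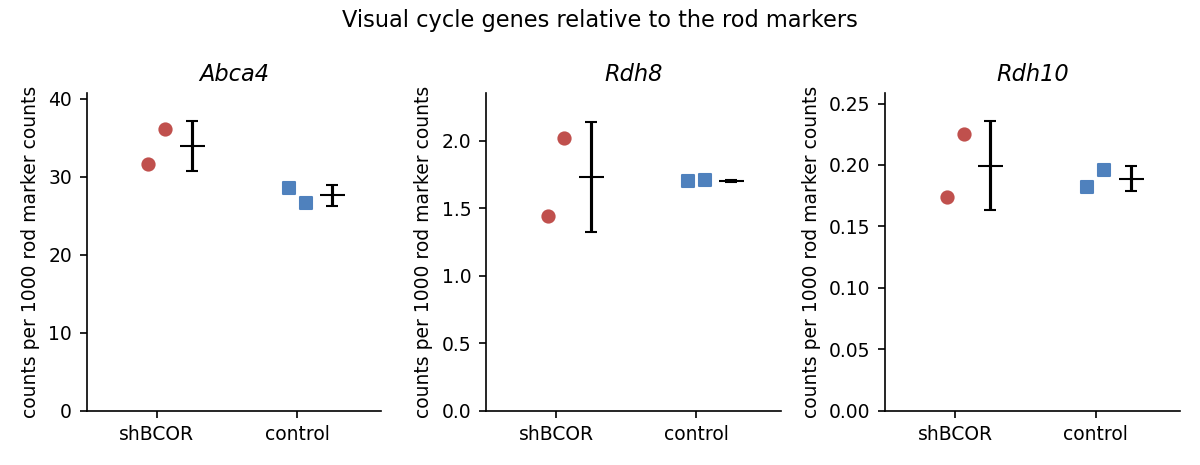
Counts of Abca4, Rdh8 and Rdh10 per 1000 summed counts of 12 rod markers (vertical axes, starting at 0), by group. Circles are shBCOR libraries, squares are control libraries, and black marks give the mean and SD of 2 libraries. Both circles of Abca4 lie above both squares, while those of Rdh8 and Rdh10 lie on either side of them.

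Of 48 other genes of retinoid metabolism and its receptors, 28 had a count and 13 were tested. With edgeR 0 rose and 0 fell (0.09% of all genes tested passed). DESeq2 called 3, against 5.44% of all genes to which it gave an adjusted p, and 1 of the 3 was Rdh1, with counts in the controls alone. An unadjusted p under 0.05 in edgeR was reached by 3 of the 13 (9.3% of all genes tested). The median log2 fold change was −0.05. Rbp3, the carrier of retinoids between photoreceptors and pigment epithelium, lay closest to Abca4 in size. It had 18655 and 16715 CPM in the shBCOR libraries, against 12412 and 11702 CPM in the controls, with no overlap. Its log2 fold change was 0.55 ± 0.08 (adjusted p = 0.0715, edgeR, n = 2 per group), and DESeq2 called it (adjusted p = 3.51e-10). With libraries left out in turn, the log2 fold change of Rbp3 ran from 0.47 to 0.62. That of Opn1sw was −0.64 without shBCOR replicate 1. Dhrs3 stood at −8.74 without shBCOR replicate 2, the library that held all of its shBCOR counts. Rdh1, with 0 counts in both shBCOR libraries, stood at −8.76 without shBCOR replicate 1 and −8.66 without shBCOR replicate 2. With no shBCOR count in these fits, the values of Dhrs3 and Rdh1 do not measure the size of a fold.

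Among the opsins, which bind the retinal that the cycle delivers, the cone opsin Opn1sw had 491 and 324 CPM in the shBCOR libraries and 512 and 496 CPM in the controls, with −0.31 ± 0.20 (edgeR adjusted p = 0.709). Opn1mw had 33.3 and 14.3 CPM in the shBCOR libraries and 52.6 and 24.8 CPM in the controls, with −0.71 (adjusted p = 0.794). The groups did not overlap for Opn1sw and overlapped for Opn1mw.

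Among the genes that isomerise or esterify retinol, Rpe65 and Lrat had few counts. Rpe65, the isomerase of the pigment epithelium, had 0 and 31 counts in the shBCOR libraries and 0 and 0 in the controls, and Lrat, the retinol acyltransferase, had 0 and 11 against 0 and 0. Neither had enough counts to be tested, and shBCOR replicate 2 held all of them. Ttr, a carrier of retinol in blood that pigment epithelium also makes, had its highest count, 35, in the same library. Rrh, a retinal-binding opsin relative, and Dgat1, an acyltransferase, differed by −0.05 and 0.32 on the log2 scale (edgeR adjusted p = 0.997 and 0.983).

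Of the 11 other oxidoreductases of retinal and retinol 4 were tested, and 0 passed with edgeR and 1 with DESeq2. Rdh1, a retinol dehydrogenase, had 0 counts in both shBCOR libraries and 87 and 32 in the controls (adjusted p = 0.263, edgeR). With a floor of 3 counts per library in place of 0, Rdh1 lay 12.4-fold lower in the shBCOR libraries, which is no bound on the fold. It entered the test through its control counts alone, so that its call by DESeq2 (adjusted p = 0.00226) is given as a description. Rdh9, another member of that family, had 0 and 0 counts in shBCOR and 9 and 42 in control, too few to be tested. Dhrs3, which reduces retinal in cones and other cells, had 0 and 47 counts in the shBCOR libraries and 50 and 75 in the controls, and Dhrs4, a reductase of peroxisomes, had 3 and 57 against 1 and 48. For both, the shBCOR libraries were further apart than the group means, with adjusted p = 0.953 and 0.980. Of 8 genes of retinoic acid synthesis, breakdown and carotenoid cleavage 7 were at 0 in every library and 0 were tested, while Cyp26a1, which breaks down retinoic acid, had 7 and 16 counts in shBCOR and 0 in both controls. The retinoid receptors Rxra and Rarg differed by 1.01 ± 1.55 and −0.53 ± 2.19 on the log2 scale (edgeR adjusted p = 0.952 and 0.992).

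Beside Abca4, 15 other transporters of the same ABC subfamily were examined, and 0 of the 6 tested passed with edgeR and 1, Abca5, with DESeq2. Abca5, a lysosomal member, had 241 and 263 CPM in the shBCOR libraries and 145 and 154 CPM in the controls, a log2 difference of 0.75 ± 0.17 (edgeR adjusted p = 0.172, n = 2 per group; DESeq2 adjusted p = 0.000345). Abca13 had 0.89 ± 0.59 (adjusted p = 0.726) and Abca6 had −0.41 ± 0.48 (adjusted p = 0.897). The median over the 6 was 0.00.

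The genes whose pattern over the 4 libraries was most like that of Abca4 included Cdhr1, Grk1, Map1b and Slc6a6. They are 4 of the 5 with the smallest root mean square distance of centred log2 CPM values among 23 genes with a mean log2 CPM within 1 of that of Abca4. The distance ran from 0.0548 for Cdhr1 to 0.0854 for Slc6a6, the taurine transporter, and Pearson's r over the 4 libraries from 0.962 to 0.997. Cdhr1, a cadherin of nascent discs, had a log2 fold change of 0.49, the photoreceptor kinase Grk1 0.46, the microtubule protein Map1b 0.46 and Slc6a6 0.49 (edgeR adjusted p from 0.0769 to 0.0947). All 4 genes share the 4 libraries and their scaling with Abca4. Of 8 outer segment and matrix genes tested for comparison 2 rose and 0 fell with edgeR (0.0386% and 0.0514% of all genes tested). The list, which also holds Cdhr1, was chosen with earlier results of these data known, so its shares are a description and no test. DESeq2 called 5, against 5.44% of all genes to which it gave an adjusted p. The median log2 fold change was 0.37, against −0.01 over all genes tested. The 2 that rose with edgeR were Rp1, a protein of the axoneme, with 0.72 ± 0.07 (adjusted p = 0.0173), and Impg2, of the matrix around photoreceptors, with 0.81 ± 0.09 (adjusted p = 0.0321).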

How the data were processed

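The deposited RNA tables hold whole-number counts, 1 row for each RefSeq record. The submitters' processing notes name HTSeq, TopHat, Trimmomatic and DESeq2 among the tools and mm10 and mm9 among the builds, with no versions or roles; the sources used here give neither the strand setting nor the treatment of reads in several records, so overlapping and antisense genes are not told apart. Titles set the groups; the table belonging to shBCOR replicate 2 is numbered differently from the title. Of 45895 records 45744 were matched to symbols through a RefSeq table of GRCm38.p6 (99.7%) and summed per gene; unmatched records held 0.480% of counts and stayed as rows of their own. The quasi-likelihood test of these sums used edgeR 4.0.16 and R 4.3.3 (TMM, filterByExpr, robust quasi-likelihood fit, common biological coefficient of variation 0.545). It was first tried on simulated data with less spread than this common value and with larger folds than that of Abca4. The simulation therefore does not show how the test does at the spread and folds seen here. SE is the log2 fold change over the root of F. Alternatives were DESeq2 1.42.0, other scalings and filters, single records, equal depth, each library left out, and, after the data were seen, an offset for gene span. An exact permutation test of 2 against 2 cannot go below 0.333 and was not run. Replicates were no duplicates of each other (chi-square per degree of freedom 19.1 in shBCOR and 13.5 in control, over genes with at least 20 summed counts). Counting errors and floors cover counting only. Exon lengths were not used, so levels of different genes were not ordered. The CUT&RUN peaks, in another build's coordinates, were not used here. Promoters are RefSeq's on GRCm38.p6. Members and lists were chosen with earlier results of these data known. Named were all members, the genes of each list that passed, up to 3 of each with the smallest p, and the 5 genes most like Abca4, except some genes that are not reported here. Rdh9, Cyp26a1, Rpe65, Lrat and Ttr were named after their values were seen.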

Additional observations from a re-analysis of the deposited data

How the results depend on the processing

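Abca4 kept its direction under all 15 alternatives. It passed with DESeq2 at 0.58, without a filter on low counts at 0.57 (adjusted p = 5.86e-07) and at equal depth at 0.58 (adjusted p = 0.0431). With single libraries left out it ran from 0.53 to 0.62, and passed without either shBCOR library but not without either control library. The replicate block also brought it past the threshold, at 0.58 (adjusted p = 0.0495), as the only visual cycle gene (1 called), with 1 other retinoid gene (Rbp3) and 23 genes in all. Deviations of same-numbered libraries from their group means correlated by −0.008 over the genes tested. With 2 libraries per group this is a single value, so it cannot decide whether same-numbered libraries share a batch. Visual cycle genes called were 1 with DESeq2, without a filter and at equal depth, and 0 to 1 with libraries left out. Other retinoid genes called were 3 with DESeq2 and without a filter, 1 with the span offset (Rbp3) and 0 to 4 with libraries left out. All genes called were 29 with library totals alone (3 higher, 26 lower), 410 with DESeq2, 205 without a filter, 16 at equal depth and 4 to 525 with libraries left out. Library totals alone moved the median of all genes by −0.18 and Abca4 to 0.41, and no filter moved that median by −0.10. Directions turned for Rdh14 without shBCOR replicate 2 (−0.15; range with libraries left out −0.15 to 0.69) and for Rlbp1 without control replicate 1 (0.064; −0.63 to 0.064) and in record NM_020599 (0.24). The cause was not tested. Rdh8, Rdh10 and Retsat kept their direction under 15 alternatives each, and Rdh11 under the 12 that kept it in the test. In the 250 bases before the start, TGCTGA was found in 3 and CANNTG in 6 of the 7 genes. Low counts limit Rdh11, Retsat and Rlbp1, with a mean of 6, 81 and 36 counts per library.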
